A study of Mus musculus with 6 samples.

Results

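The genes described here move or store zinc, copper and magnesium in the kidney. They were chosen by symbol: the 14 Slc39 zinc importers, the 10 Slc30 zinc exporters, the Slc31 copper and Slc41 magnesium transporters, the metallothioneins Mt1, Mt2 and Mt3, the metal-sensing transcription factor Mtf1, the copper pumps Atp7a and Atp7b, and Cnnm2, a magnesium transport protein of the distal tubule. All 36 symbols that match are in the count files, out of 17680 gene symbols in all. RNA was sequenced from bulk kidney of wild-type C57BL/6 mice aged 6 to 8 weeks. The LPS group of 3 mice had received lipopolysaccharide from the bacterial outer membrane, injected into the peritoneum to produce septic kidney injury, and the Control group of 3 mice had received PBS by the same route. Kidneys were taken 24 h after the injection, and all 6 mice had the same genotype. The sources used here give neither the dose of LPS nor the sex of the mice.

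Zinc enters the cytosol from outside the cell or from organelles through Slc39 (ZIP) proteins, and leaves it through Slc30 (ZnT) proteins. Metallothioneins are small cysteine-rich proteins that bind zinc and copper. Their genes are induced through Mtf1 when free zinc rises, and by glucocorticoids and interleukin 6 in inflammation. Copper enters through Slc31a1 and is pumped into the secretory pathway or out of the cell by Atp7a and Atp7b. Filtered magnesium is reclaimed mainly in the thick ascending limb and, under fine control, in the distal convoluted tubule.

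The libraries held between 29097558 and 33454344 counts. Kidney markers were present in both groups, with the thick ascending limb gene Umod averaging 4346 CPM in LPS kidneys, against 4477 CPM in Control kidneys. The other 7 of 8 thick ascending limb markers fell. That list, with Umod, summed to 4787 to 5018 CPM in LPS against 8403 to 8905 CPM in Control kidneys. CPM here are counts relative to library size, scaled with TMM factors. LPS replicate 2 stood apart. A list of 10 seminal vesicle genes took 3.69% of its counts, against 0.0217% to 0.0430% in the other 5 libraries. Marker lists of kidney and blood cells also moved between the groups. All 15 proximal tubule markers fell, and their summed level was 14998 to 16656 CPM in LPS against 52761 to 54513 CPM in Control kidneys. The 8 neutrophil markers tested, of 12 listed, rose, and the list summed to 76.4 to 184 CPM in LPS against 3.22 to 3.81 CPM in Control kidneys. Of the 184 CPM in LPS replicate 2, 83.5 CPM came from Ltf, which stood at 7.77 and 6.48 CPM in LPS replicates 1 and 3. Without Ltf, left out after its values were seen, the list summed to 81.1, 101 and 69.9 CPM in LPS against 3.58, 3.58 and 2.93 CPM in Control libraries. The neutrophil-defining Ly6g had 4 and 2 counts over the LPS and Control libraries, Mpo 6 and 0 counts, and Elane 4 and 0 counts, while Camp, also below the filter, had 96 and 2 counts. Of 12 monocyte and macrophage markers 6 rose and 4 fell, and they summed to 485 to 648 CPM in LPS against 145 to 227 CPM in Control kidneys. The larger part of each LPS sum came from Cd14 alone, at 416, 276 and 337 CPM. In Control libraries Cd14 stood at 8.19, 7.07 and 7.89 CPM. The 4 markers that fell were Csf1r, Ccr2, Cx3cr1 and Mrc1. In bulk tissue, fewer cells of a type and less RNA per cell cannot be told apart, and the part of these shifts in the results below was not tested.

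Of the 36 genes, 31 passed the filter on low counts, each above the filter level in all 6 libraries. By edgeR's quasi-likelihood test, 15 of these 31 rose and 7 fell with LPS, at an adjusted p under 0.05 (Benjamini-Hochberg, over all genes tested). Among all 14219 genes tested, 50.5% passed in either direction, 25.7% higher and 24.8% lower, against 71.0% of the metal handling genes in either direction. At least 2-fold changes were called for 7 higher and 2 lower genes, where the background was 8.24% and 9.62%. For 24 of the 31 genes the CPM of the groups were wholly apart, against 60.2% of all genes tested. The median log2 fold change was 0.19 for the 31 genes and 0.01 for all genes tested.

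**Figure D1:**
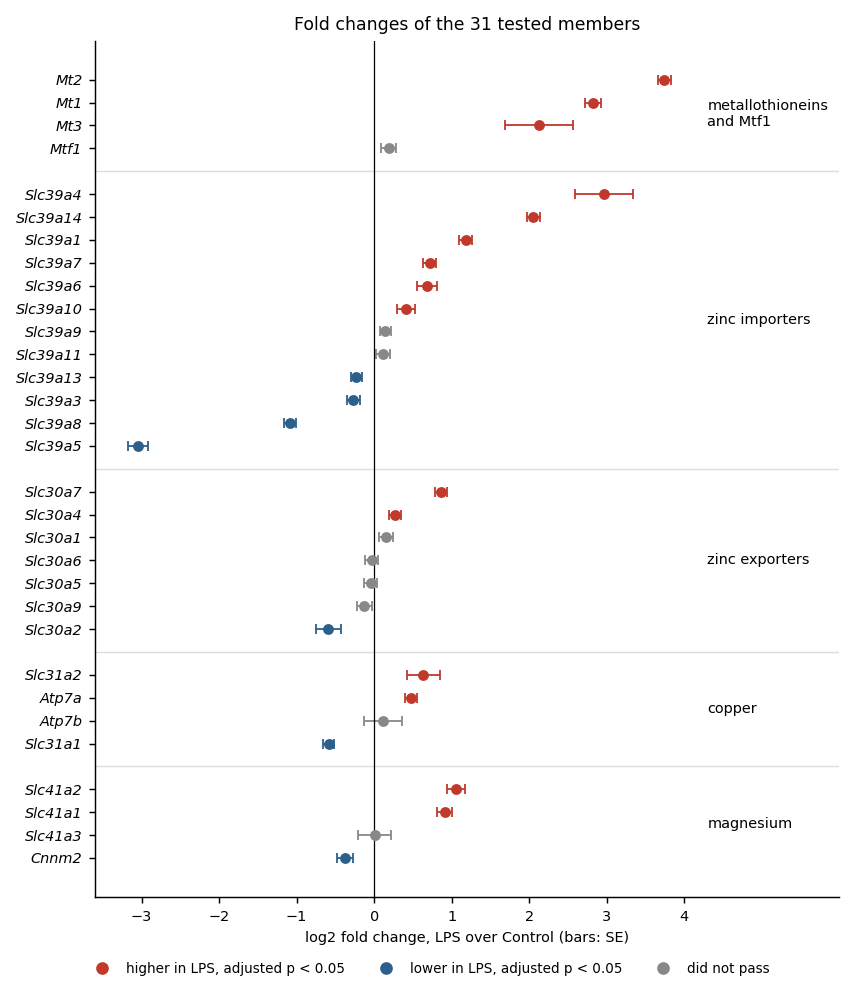
Log2 fold change, LPS over Control, of the 31 tested genes, arranged by role, with bars for the standard error. Mt2 lies farthest to the right at 3.75 and Slc39a5 farthest to the left at -3.05, and the zinc exporters stay between -0.59 and 0.87.

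All 3 metallothioneins rose, and Mt2 had the largest fold change of the 31 genes. Mt2 stood at 436, 415 and 410 CPM in the 3 LPS libraries, against 29.3, 31.8 and 32.8 CPM in the Control libraries. Every LPS library lay above every Control library, a log2 fold change of 3.75 ± 0.09 (SE; edgeR adjusted p = 4.16e-08), or 13.4-fold. Mt1 stood at 611, 514 and 541 CPM in LPS against 70.7, 84.2 and 80.4 CPM in Control libraries. Again the groups did not overlap, and the log2 fold change was 2.82 ± 0.10 (edgeR adjusted p = 1.89e-07), or 7.08-fold. Mt3, a metallothionein best known from the brain, was scarce, at 1.63, 2.83 and 4.08 CPM in LPS against 0.535, 0.456 and 0.954 CPM in Control libraries. Its 53, 94 and 126 counts in LPS and 16, 14 and 29 counts in Control libraries gave a log2 fold change of 2.13 ± 0.43 (edgeR adjusted p = 0.00317), with no overlap. Among the LPS libraries, replicate 3 had more than 2-fold the level of replicate 1.

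Per length, Mt1 and Mt2 exchanged places. FPKM, as deposited by the authors, are counts divided by gene length and library total, and allow levels of different genes to be compared. Mt2 averaged 753 ± 34.3 FPKM in LPS and 56.4 ± 2.22 FPKM in Control kidneys (SD, n = 3 each), and Mt1 averaged 530 ± 53.6 FPKM in LPS and 75.2 ± 5.17 FPKM in Control kidneys. The ratio of Mt1 to Mt2 was 0.746, 0.659 and 0.703 in the LPS libraries, against 1.28, 1.41 and 1.30 in the Control libraries. Per length, Mt1 was thus the more abundant of the pair in every Control library and Mt2 in every LPS library. In counts, Mt1 was above Mt2 in all 6 libraries, so the order within LPS kidneys rests on the gene lengths behind the deposited FPKM, 1045 bases for Mt1 and 556 bases for Mt2. The difference in the ratio between the groups does not depend on these lengths. The log2 ratio differed by -0.92 between LPS and Control (exact permutation test over the samples, two-sided, p = 0.1, the smallest that 3 against 3 libraries can give). The longest run of bases that transcripts of both genes share in GENCODE vM21 is 20 bases. For Mt2, 73.5% of the exon bases overlap Gm45774, a gene on the opposite strand there, and no source used here gives the strand setting of the counting, so reads of these genes cannot be told apart.

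Mtf1, the zinc-sensing factor that induces metallothioneins, stood at 25.4, 28.2 and 24.4 CPM in LPS against 24.2, 23.2 and 21.0 CPM in Control libraries. All LPS values lay above the Control values by a small margin, and the log2 fold change of 0.19 ± 0.10 did not pass (edgeR adjusted p = 0.134). The zinc exporter Slc30a1, another well known target of MTF1, stood at 129, 139 and 151 CPM in LPS against 126, 134 and 116 CPM in Control libraries. Its groups overlapped, and its log2 fold change was 0.15 ± 0.09 (edgeR adjusted p = 0.208). Among 8 genes known to act on metallothionein genes, or to read out those signals, 4 rose and 2 fell, with a median log2 fold change of 1.08. That is 75.0% passing, against 50.5% of all genes tested. Stat3, the transcription factor downstream of interleukin 6, averaged 322 ± 12.3 CPM in LPS kidneys, against 86.4 ± 0.916 CPM in Control kidneys (SD, n = 3 each). Socs3, a feedback inhibitor induced by STAT3, averaged 160 ± 72.2 CPM in LPS kidneys, against 3.79 ± 0.559 CPM in Control kidneys. Il6 itself had 430 counts over the LPS libraries and 6 over the Control libraries. Nr3c1, the glucocorticoid receptor, fell to 73.1 ± 3.35 CPM in LPS kidneys, against 134 ± 13.1 CPM in Control kidneys. Of 2 genes known to be induced by glucocorticoids, named after their values were seen, Fkbp5 rose by 1.67 ± 0.30 and Tsc22d3 fell by 0.54 on the log2 scale.

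The stretches upstream of Mt1, Mt2 and Slc30a1 are shown because all 3 genes are known MTF1 targets and only the first 2 of them passed the test here. They are the 250 bases before each gene's RefSeq start (GRCm38.p6), all on the + strand, at chr8:94178839-94179088, chr8:94172368-94172617 and chr1:191906531-191906780. Capitals mark the core of the metal response element bound by MTF1, searched as TGCACNC and TGCGCNC on both strands.
Mt1: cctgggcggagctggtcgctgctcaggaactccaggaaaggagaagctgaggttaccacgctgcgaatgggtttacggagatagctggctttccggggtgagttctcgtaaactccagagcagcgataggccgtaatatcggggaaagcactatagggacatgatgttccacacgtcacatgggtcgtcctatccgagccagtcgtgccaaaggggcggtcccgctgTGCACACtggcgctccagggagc
Mt2: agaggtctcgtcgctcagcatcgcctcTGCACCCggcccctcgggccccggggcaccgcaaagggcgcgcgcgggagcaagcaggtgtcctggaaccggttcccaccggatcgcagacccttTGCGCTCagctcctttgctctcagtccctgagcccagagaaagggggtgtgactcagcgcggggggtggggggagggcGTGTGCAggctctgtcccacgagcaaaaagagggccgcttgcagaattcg
Slc30a1: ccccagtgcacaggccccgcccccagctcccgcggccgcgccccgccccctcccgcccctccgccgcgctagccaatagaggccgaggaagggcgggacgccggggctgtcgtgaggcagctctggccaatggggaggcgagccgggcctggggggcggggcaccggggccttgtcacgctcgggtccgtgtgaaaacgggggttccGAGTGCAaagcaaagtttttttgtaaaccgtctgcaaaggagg
The window held 1 core for Mt1, 3 for Mt2 and 1 for Slc30a1. At least 1 core was found in 21.4% of all 32851 windows of the same length, and 3 or more in 1.26%. Of the 36 genes, 32 had an entry in the RefSeq table, with 37 windows, of which 19 held a core; these included the 3 cores of Slc30a10, a gene with 1 count in all. For Mt1, GENCODE vM21 lists 2 further starts 122 and 152 bases downstream of the RefSeq start, and for Mt2 starts 46 and 242 bases downstream, and the sequence there was not searched. The cores in these 3 windows do not overlap each other. The Mt1 window also held 1 match to the glucocorticoid response element, searched as GNACA and TGTNC with 3 bases between them, which 0.387% of all windows held and which does not overlap the core. The STAT element, searched as TTCNNNGAA, was found in neither metallothionein window and in 7.02% of all windows.

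**Figure D2:**
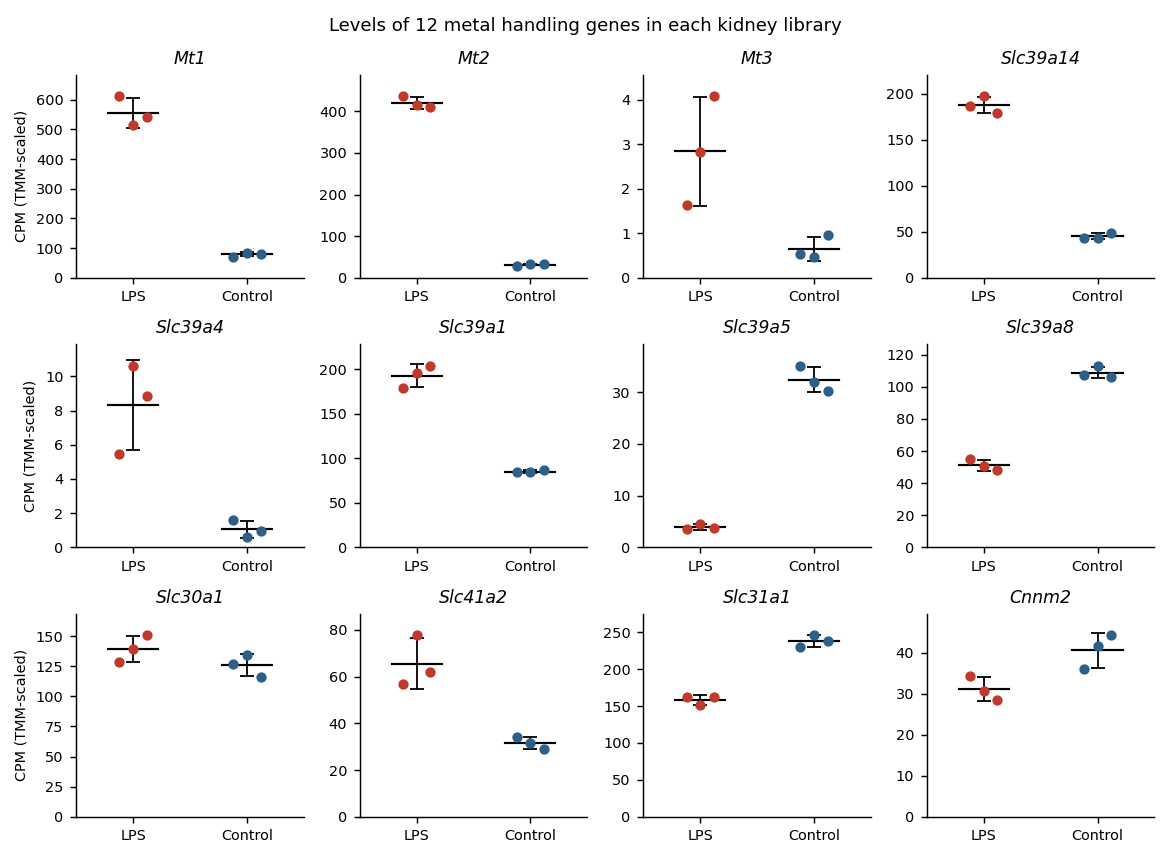
CPM (TMM-scaled) of 12 genes in each library, with LPS and Control side by side; points are libraries, the line is the mean and the bar the SD of 3 libraries. Mt1, Mt2, Mt3, Slc39a14, Slc39a4, Slc39a1 and Slc41a2 lie higher in every LPS library, Slc39a5, Slc39a8, Slc31a1 and Cnnm2 lower, and Slc30a1 overlaps between the groups.

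The zinc importers changed in both directions. Of 14 Slc39 genes 12 were tested, and 6 rose, 4 fell and 2 did not pass. Thus 83.3% passed in either direction, against 50.5% of all genes tested. Slc39a14, which carries zinc, manganese and iron and is induced by interleukin 6 in mouse liver, stood at 186, 197 and 179 CPM in LPS against 43.6, 43.4 and 48.5 CPM in Control libraries. The libraries of each group lay close together, and the log2 fold change was 2.05 ± 0.09 (edgeR adjusted p = 3.14e-07). Slc39a4, the importer whose loss causes the zinc deficiency acrodermatitis enteropathica in humans, stood at 5.47, 10.6 and 8.88 CPM in LPS against 1.60, 0.619 and 0.954 CPM in Control libraries. It was low in both groups without overlap, and rose by 2.97 ± 0.37 (edgeR adjusted p = 0.000197). On the log2(FPKM + 1) scale, which understates changes of low genes, limma gave 1.65 for Slc39a4 and 1.46 for Mt3. Slc39a1, an importer of the plasma membrane, stood at 179, 195 and 204 CPM in LPS against 84.7, 84.0 and 86.6 CPM in Control libraries. It rose by 1.18 ± 0.08 (edgeR adjusted p = 5.56e-06), with Control libraries within a few percent of each other. Of its 50-base runs in GENCODE vM21, 21.8% are shared with the pseudogene Slc39a1-ps, and how reads that match both were counted is not stated, so its level is uncertain.

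Smaller increases were found for other importers. Slc39a7, which releases zinc from the endoplasmic reticulum, stood at 164, 181 and 187 CPM in LPS against 104, 112 and 108 CPM in Control libraries, a log2 fold change of 0.72 ± 0.08. A gene annotated over the same exons, Gm20427, shares 74.5% of the 50-base runs of Slc39a7. How reads that match both were counted is not stated, so the level of Slc39a7 is uncertain. Slc39a6 and Slc39a10, related importers of the plasma membrane, rose by 0.68 ± 0.13 and 0.41 ± 0.12. The rise of Slc39a10 did not pass without LPS replicate 2, LPS replicate 3 or Control replicate 2 (edgeR adjusted p = 0.0552, 0.0573 and 0.0698, in a range of 0.000816 to 0.0698 over 16 alternatives). Slc39a9 of the Golgi and Slc39a11 did not pass, with log2 fold changes of 0.14 ± 0.07 and 0.12 ± 0.09.

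Of the 4 importers that fell, 2 changed by more than 2-fold. Slc39a5, an importer of the basolateral membrane of epithelia, stood at 3.56, 4.48 and 3.69 CPM in LPS against 35.1, 31.9 and 30.3 CPM in Control libraries. The groups lay far apart, and it fell by 3.05 on the log2 scale (SE 0.13, edgeR adjusted p = 3.14e-07), 8.28-fold lower in LPS kidneys. Slc39a8, which carries zinc and manganese, stood at 54.8, 50.6 and 48.0 CPM in LPS against 107, 113 and 106 CPM in Control libraries. It fell by 1.09 (SE 0.08, edgeR adjusted p = 6.32e-06), in the opposite direction to its closest relative, Slc39a14. The proximal tubule markers, a list of 15, fell by a median of 2.18 on the log2 scale beside these 2 genes, and their part in these decreases was not tested. The decreases of Slc39a3, an importer of the plasma membrane, and Slc39a13, of the Golgi, were small, at -0.27 ± 0.09 and -0.23 ± 0.07. Both depended on single libraries: Slc39a3 did not pass without LPS replicate 1, Control replicate 1 or Control replicate 2 (edgeR adjusted p = 0.0694, 0.0521 and 0.0951, in a range of 0.0184 to 0.0951). Slc39a13 passed in 9 of 16 alternatives. Leaving out any library but Control replicate 3 ended its call, as did DESeq2, with adjusted p values between 0.0216 and 0.0933 over all alternatives. Only 2 importers, Slc39a5 and Slc39a8, were called lower without LPS replicate 1, Control replicate 1 or Control replicate 2.

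Zinc exporters moved less. Of 10 Slc30 genes 7 were tested, and 2 rose, 1 fell and 4 did not pass, none of them by 2-fold. The share that passed, 42.9%, was near the 50.5% of all genes tested. Slc30a7, which supplies zinc to enzymes in the early secretory pathway, averaged 64.6 ± 3.24 CPM in LPS kidneys, against 35.5 ± 2.55 CPM in Control kidneys (SD, n = 3 each), a log2 fold change of 0.87 ± 0.08 (edgeR adjusted p = 2.82e-05). Slc30a4, the vesicular exporter mutated in the lethal milk mouse, averaged 56.1 ± 2.23 CPM in LPS kidneys, against 46.5 ± 3.13 CPM in Control kidneys, a log2 fold change of 0.27 ± 0.08. That call was lost without Control replicate 1 or Control replicate 2 (edgeR adjusted p = 0.0512 and 0.0660, in a range of 0.0149 to 0.0660). Slc30a2, a vesicular exporter known from the mammary gland, fell to 38.5, 39.1 and 57.4 CPM in LPS, against 58.0, 71.6 and 74.1 CPM in Control libraries. LPS replicate 3 and Control replicate 1 nearly met, and the log2 fold change was -0.59 ± 0.16 (edgeR adjusted p = 0.0129). Slc30a5 and Slc30a6, which work as a pair in the secretory pathway, had log2 fold changes of -0.04 ± 0.09 and -0.03 ± 0.09, and the mitochondrial exporter Slc30a9 one of -0.13 ± 0.10, and none passed.

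Set side by side, importers had the wider spread of fold changes. The median log2 fold change was 0.28 over the 12 importers, in a range of -3.05 to 2.97, and -0.03 over the 7 exporters, in a range of -0.59 to 0.87. The difference between the families was not tested, and all genes together had a median of 0.01. Summed over the family, importer transcripts reached 239, 255 and 256 FPKM in the LPS libraries, against 180, 175 and 170 FPKM in the Control libraries. Exporters summed to 143, 137 and 155 FPKM in LPS against 147, 155 and 154 FPKM in Control libraries. The ratio of importers to exporters within a library was 1.67, 1.86 and 1.65 in LPS against 1.23, 1.13 and 1.10 in Control libraries. This ratio needs no scaling between libraries. The sums, the ratio and the order of genes within a family all rest on the gene lengths behind the deposited FPKM.

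A pair of genes, Slc39a1 and Slc39a7, picked after their values were seen, held the difference in the importer sum. In GENCODE vM21 they share 21.8% and 74.5% of their 50-base runs with other genes. The importer sum and its ratio to the exporters carry the same uncertainty. Slc39a1 averaged 81.3 ± 4.42 FPKM in LPS and 36.2 ± 0.874 FPKM in Control kidneys, and Slc39a7 73.9 ± 4.12 FPKM in LPS and 45.2 ± 0.920 FPKM in Control kidneys (SD, n = 3 each). Without both, the importers summed to 93.0, 97.7 and 93.4 FPKM in LPS against 98.5, 93.3 and 88.4 FPKM in Control libraries, which overlap. Within that remainder, Slc39a14 made up 9.28% of the whole importer sum in LPS and 3.21% in Control kidneys, at 23.2 ± 1.19 and 5.61 ± 0.334 FPKM. Slc39a5 and Slc39a8 changed the other way, to 1.77 ± 0.219 and 6.35 ± 0.499 FPKM in LPS kidneys, against 14.8 ± 1.42 and 13.6 ± 0.407 FPKM in Control kidneys. Slc39a14 was thus the third most abundant importer in LPS kidneys, whereas in Control kidneys Slc39a9, Slc39a5, Slc39a8, Slc39a13, Slc39a3 and Slc39a11, in falling order of their means, lay above it and below Slc39a1 and Slc39a7. In Control kidneys the libraries of Slc39a8 overlapped those of both Slc39a5 and Slc39a13, and those of Slc39a11 overlapped those of both Slc39a3 and Slc39a13. In LPS kidneys Slc39a1 and Slc39a7 overlapped at the top of the order. Slc39a14 was at 21.9 FPKM or more in each LPS library, and the next gene, Slc39a9, at 20.3 FPKM or less. Among exporters Slc30a9 was the most abundant in both groups, at 47.0 ± 4.55 FPKM in LPS and 51.7 ± 1.71 FPKM in Control kidneys. Its place rests on the gene length behind the deposited FPKM, 3410 bases. The exons of Slc30a9 in GENCODE vM21 cover 12374 bases, and the order with such lengths was not computed.

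**Figure D3:**
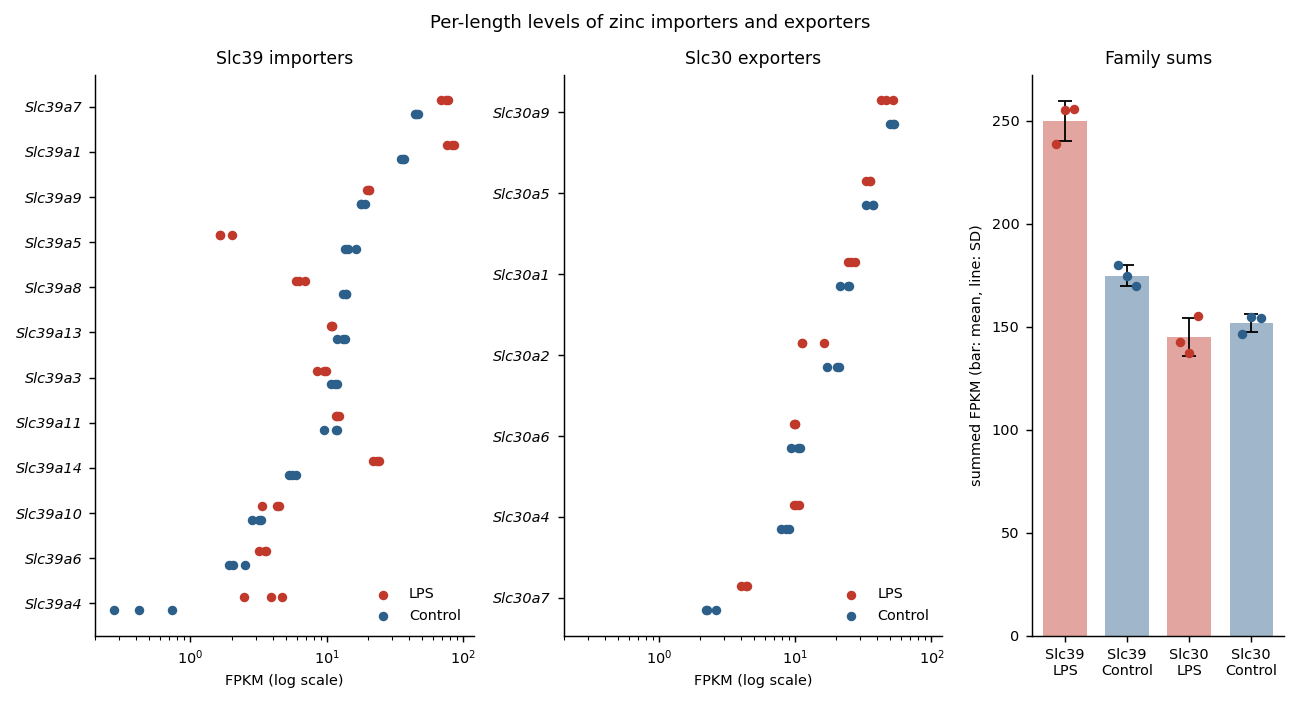
FPKM of each tested zinc importer and exporter in every library (log scale, LPS above Control in each row) and the family sums (bars are means, lines the SD of 3 libraries, points the libraries). Slc39a14 and Slc39a5 cross the order of the other importers, and the importer sum averages 250 FPKM in LPS and 175 FPKM in Control kidneys, against 145 and 152 FPKM for the exporters.

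The other zinc-related genes, a list of 17 binding proteins, sensors and zinc-dependent kidney enzymes, had 3 genes higher, 9 lower and 5 that did not pass. Their median log2 fold change was -0.42, and 70.6% passed, against 50.5% of all genes tested. S100a8 and S100a9, the calprotectin subunits that chelate zinc outside cells and are abundant in neutrophils, rose by 5.04 ± 0.22 and 4.93 ± 0.20. Both also belong to the neutrophil list that rose here. Car14, a zinc-dependent carbonic anhydrase on the surface of tubule cells, fell to 9.87 ± 0.714 CPM in LPS kidneys, against 136 ± 30.9 CPM in Control kidneys, and the related Car4 fell by 3.08 on the log2 scale (SE 0.16). All 15 proximal tubule markers fell as well, with a median log2 fold change of -2.18. Their part in the decreases of this list was not tested.

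Of the 4 copper transporters 2 rose, 1 fell and 1 did not pass, all by less than 2-fold. Among all genes tested 50.5% passed. Slc31a1, the high-affinity copper importer CTR1, stood at 162, 151 and 162 CPM in LPS against 229, 246 and 238 CPM in Control libraries. It fell in each LPS library, by 0.59 on the log2 scale (SE 0.08, edgeR adjusted p = 0.000225). Atp7a, the copper pump mutated in Menkes disease in humans, stood at 58.2, 56.9 and 52.1 CPM in LPS against 38.3, 38.2 and 43.7 CPM in Control libraries. It rose by 0.48 ± 0.08 (edgeR adjusted p = 0.00131). Atp7b, the pump mutated in human Wilson disease, stood at 6.02, 3.79 and 3.73 CPM in LPS against 4.55, 3.48 and 4.47 CPM in Control libraries, which overlap. Its log2 fold change was 0.12 ± 0.25 (edgeR adjusted p = 0.724), and the level of Atp7b per length was 0.0931 ± 0.0231 of that of Atp7a in LPS and 0.120 ± 0.0161 in Control kidneys.

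Slc31a2, the related protein CTR2 of endosomes and lysosomes, stood at 28.9, 52.0 and 29.3 CPM in LPS against 26.4, 23.7 and 20.8 CPM in Control libraries. LPS replicate 2, the library with the seminal vesicle transcripts, was far above the other LPS libraries. The log2 fold change was 0.64 ± 0.22 (edgeR adjusted p = 0.0362). Without LPS replicate 2 it was 0.30 (edgeR adjusted p = 0.0785), and without Control replicate 2 or Control replicate 3 the adjusted p was 0.0917 and 0.109, in a range of 0.00572 to 0.109 over all alternatives.

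Among 20 tested copper chaperones and copper enzymes 7 rose and 7 fell, with a median of -0.08. Here 70.0% passed, against 50.5% of all genes tested. Cp, which encodes the copper-carrying ferroxidase ceruloplasmin, stood at 960, 656 and 670 CPM in LPS against 64.5, 47.4 and 53.0 CPM in Control libraries. Its rise of 3.79 ± 0.18 was the largest of the list. Steap2, a metalloreductase that reduces copper and iron, rose by 1.31 ± 0.13, and Atox1, the chaperone that hands copper to Atp7a and Atp7b, by 0.82 ± 0.09. Sod3, the extracellular copper and zinc superoxide dismutase, fell to 346 ± 24.1 CPM in LPS kidneys, against 569 ± 27.0 CPM in Control kidneys. The cytosolic enzyme Sod1 and its copper chaperone Ccs, named after their values were seen, fell by 0.62 and 0.69 on the log2 scale.

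Of the 3 Slc41 magnesium transporters 2 rose, and Cnnm2 fell. Slc41a1, a sodium and magnesium exchanger of the plasma membrane, stood at 64.0, 61.3 and 68.2 CPM in LPS against 30.4, 34.1 and 38.6 CPM in Control libraries. It rose by 0.91 ± 0.10 (edgeR adjusted p = 7.03e-05) with the groups well apart. Slc41a2 stood at 57.0, 77.7 and 62.2 CPM in LPS against 34.1, 31.6 and 28.9 CPM in Control libraries, highest in LPS replicate 2. It rose by 1.06 ± 0.12 (edgeR adjusted p = 0.000109), and by 0.92 without LPS replicate 2. Slc41a3, which exports magnesium from mitochondria, averaged 3.58 ± 0.256 CPM in LPS kidneys, against 3.57 ± 0.581 CPM in Control kidneys (SD, n = 3 each), and did not pass (edgeR adjusted p = 0.987). Cnnm2, mutated in inherited human hypomagnesaemia, stood at 34.4, 30.6 and 28.4 CPM in LPS against 35.9, 41.6 and 44.2 CPM in Control libraries. The highest LPS library lay just under the lowest Control library, and the log2 fold change was -0.38 ± 0.10 (edgeR adjusted p = 0.0136). The call was lost without LPS replicate 3 or Control replicate 3 (edgeR adjusted p = 0.0508 and 0.0540, in a range of 0.00701 to 0.0540). All 8 markers of the distal convoluted tubule, where Cnnm2 acts, also fell, summing to 818 to 1203 CPM in LPS against 2047 to 2201 CPM in Control kidneys, and their part in the decrease of Cnnm2 was not tested.

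Of 34 other magnesium genes 6 rose, 17 fell and 11 did not pass, with a median of -0.31. In this list 67.6% passed, against 50.5% of all genes tested. Egf, which promotes magnesium reabsorption by acting on the channel TRPM6, stood at 101, 74.7 and 69.1 CPM in LPS against 1910, 2196 and 2437 CPM in Control libraries. It fell by 4.74 on the log2 scale, and the channel gene Trpm6 by 0.86 (SE 0.18), to 11.3 ± 2.56 CPM in LPS kidneys, against 20.4 ± 3.10 CPM in Control kidneys. Pvalb, a calcium and magnesium buffer of the distal convoluted tubule, fell by 4.87 (SE 0.22), and Pcbd1, whose loss causes magnesium wasting in humans, by 1.52 (SE 0.11). Ptp4a1, a phosphatase that binds CNNM proteins, rose by 1.44 ± 0.09. Trpm6 was named after its values were seen. Egf, Trpm6, Pvalb, Slc12a3, Cldn16, Cldn19 and Umod also stand in the marker lists of the thick ascending limb or the distal convoluted tubule. Those lists fell in 7 of 8 and 8 of 8 genes. Of the genes shared with them, all but Umod fell, and the part of the marker decrease in this list was not tested.

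**Figure D4:**
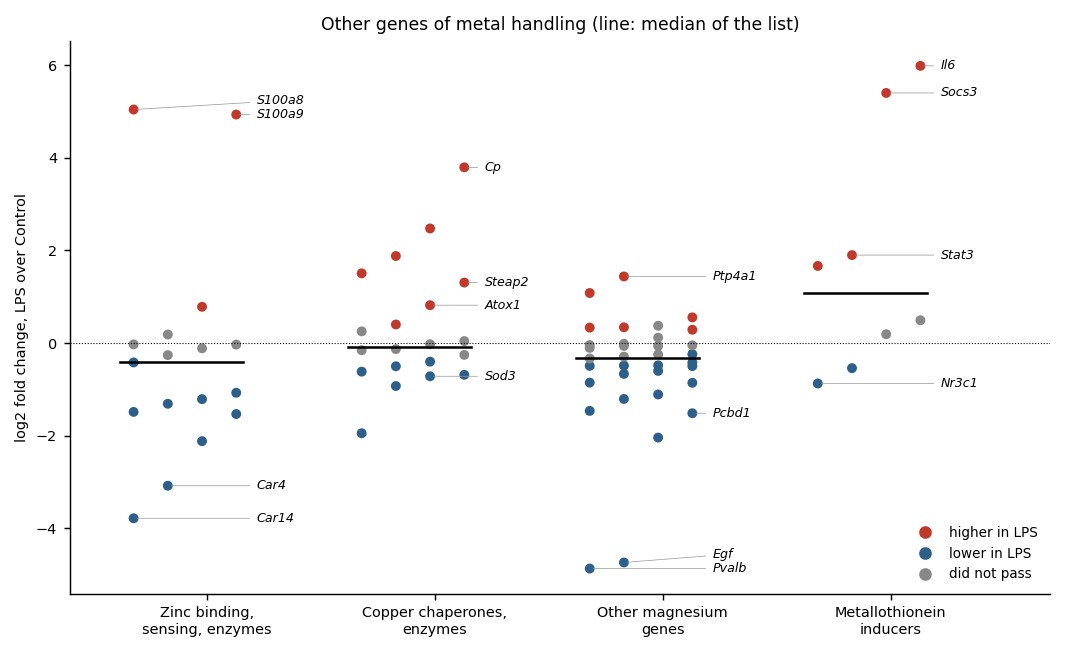
Log2 fold change, LPS over Control, of the tested genes of the lists of other zinc, copper and magnesium genes. The list labelled metallothionein inducers holds genes that act on metallothionein genes or read out those signals. A line marks each list median, and the 4 genes of smallest p in each list are named. The list of inducers and readouts has its median above 0, at 1.08, and the zinc, copper and magnesium lists have theirs at -0.42, -0.08 and -0.31.

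The 5 genes below the filter were nearly absent from both groups. Slc30a8, the zinc transporter of insulin granules, had 7, 12 and 2 counts in the LPS libraries against 1, 0 and 0 counts in the Control libraries, a ratio of 19.8 over the groups (exact 95% interval 3.18 to 818, counting error only). It was called higher in LPS kidneys where it was tested, by edgeR with no filter on low counts (adjusted p = 0.0210) and by DESeq2 (adjusted p = 0.0386), from these few counts. Slc39a2 had 7 and 6 counts over the LPS and Control libraries. Slc39a12 had 0 and 2 counts, Slc30a3, the exporter of synaptic vesicles, 0 and 1, and Slc30a10, a manganese exporter, 1 and 0 counts. A count of 0 over a group allows up to 3 counts, so no difference was detectable at this depth for these last 3 genes.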

How the data were processed

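RNA was sequenced in bulk from kidneys of 3 LPS and 3 Control mice, grouped by the sample titles. TRIzol was used for extraction and VAHTS Universal V6 for the libraries, per the labels' protocols. For each library and gene symbol, the authors deposited raw counts and FPKM values. The tools named, per the submitters' processing notes and with no role given, are R 3.2.0, HTSeq, DESeq2, HISAT2 and SAMtools. Build, annotation and strand setting: not given in the sources used here. Gene lengths were derived from these same counts and FPKM, as the median over the libraries for each gene. With them, the deposited FPKM equalled count over gene length and library total in 106077 of 106080 values, within a relative tolerance of 1e-06. Values of 0 counted as equal, so the match shows only that a gene had the same length in each library.

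Counts were tested in edgeR 4.0.16 (R 4.3.3): filterByExpr (minimum count 10, minimum total 15) kept 14219 of 17680 genes, TMM factors were used, and LPS was compared with Control by the quasi-likelihood test, two-sided, with Benjamini-Hochberg adjustment over the genes kept and a threshold of 0.05. The procedure was run on simulated counts with 200 genes changed, and the recovery is not reported here. The changes put in were larger than the smallest ones called here, such as that of Slc39a13. The SE was derived as the absolute log2 fold change over the square root of F. Alternatives were RLE factors or library sizes as the scaling, no filter or one on mean CPM (1 or more), DESeq2 1.42.0, limma 3.58.1 (voom, or log2(FPKM + 1) and log2(FPKM + 0.1) for genes with a mean FPKM from 0.1 up), a block for replicate number, each library left out, and a fit without 178 genes, namely the seminal vesicle list and those with over 32 times more in LPS replicate 2 than in any other library.

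The genes and lists were chosen with earlier results of these data known. CPM are given per library for genes past the threshold with at least a 2-fold change and for Mt1, Mt2, Mtf1, Slc30a1, Slc39a14, Slc39a8, Slc31a1, Atp7a, Atp7b and Cnnm2; of each other list the 4 genes with the smallest p are named, and genes beyond that rule were chosen after their values were seen. Promoter sequences are from RefSeq (GRCm38.p6), and exon overlaps and shared 50-base runs were computed on GENCODE vM21. By that annotation 8 of the 31 tested genes share exon bases with another gene. Replicates are separate mice, per the series' design text.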

Additional observations from a re-analysis of the deposited data

How the results depend on the processing

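Of 22 genes called, 16 kept direction and call in all 16 alternatives: Mt1, Mt2, Mt3, Slc39a1, Slc39a4, Slc39a5, Slc39a6, Slc39a7, Slc39a8, Slc39a14, Slc30a2, Slc30a7, Slc31a1, Atp7a, Slc41a1 and Slc41a2. The other 6 lost the call in at least 1 alternative and kept direction, and the cause was not tested. Leaving out 1 library gave 12 to 15 genes higher and 5 to 6 lower, 2 to 4 importers lower and 1 to 2 exporters higher. With no filter, and with DESeq2, 16 genes and 3 exporters were higher, since Slc30a8 was tested and passed. Of genes that did not pass, Atp7b ranged from -0.15 (without LPS replicate 1) to 0.24 on the log2 scale with a library left out, and Slc41a3 from -0.11 to 0.13. Slc41a3 was also -0.00079 with RLE factors, -0.0018 with library sizes and -0.0051 with a mean CPM of at least 1. With the replicate number as a block, 15 genes were higher and 6 lower, since Slc39a13 did not pass (adjusted p = 0.0706), and the block changed no other call among the 31. The deviations of same-numbered libraries correlated at 0.048, -0.053 and -0.0020, and only LPS replicate 1 correlated best with its own number. No pairing by number was seen in these values, which cannot exclude one in the design. Slc31a2 did not pass in limma-voom (adjusted p = 0.0506) or limma on log2(FPKM + 1) and log2(FPKM + 0.1) (0.0723 and 0.0668), and Slc39a13 did not in DESeq2 (0.0542). Depth left 5 genes, at 0 to 12 counts per library, below the filter.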

Other observations

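Genes of the CNNM proteins and of the PTP4A phosphatases that bind them are set side by side here, a grouping chosen after the values were seen. All 3 phosphatase genes rose in LPS kidneys. Ptp4a1 stood at 57.6, 66.4 and 69.5 CPM in LPS against 23.9, 22.2 and 25.4 CPM in Control libraries. Ptp4a3 rose by 1.08 ± 0.11 and Ptp4a2 by 0.55 ± 0.08 on the log2 scale (edgeR adjusted p = 5.42e-05 and 0.000364). Among the CNNM genes, Cnnm4 fell to 9.86 ± 0.933 CPM in LPS kidneys, against 17.8 ± 2.50 CPM in Control kidneys (SD, n = 3 each), and Cnnm3 to 22.3 ± 4.14 CPM, against 31.4 ± 1.34 CPM. Cnnm2 fell by 0.38 on the log2 scale, and Cnnm1 did not pass, averaging 23.8 ± 5.28 CPM in LPS kidneys, against 18.4 ± 1.26 CPM in Control kidneys (edgeR adjusted p = 0.0659). Gpr39, a receptor that senses extracellular zinc, was higher at 6.48, 8.60 and 6.12 CPM in LPS against 4.55, 4.49 and 3.29 CPM in Control libraries, a log2 fold change of 0.78 ± 0.21.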
